A study of Mus musculus with 38 samples.

Results

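Creatine is made, carried into cells and phosphorylated by a small set of proteins, and a second small set moves calcium across the membrane of the endoplasmic reticulum. The genes described here are 6 of the first kind and 2 of the second. They are Ckb, Ckmt1 and Ckmt2 (creatine kinases), Gatm and Gamt (the enzymes of creatine synthesis), Slc6a8 (the creatine transporter), Atp2a2 (the SERCA2 calcium pump) and Ryr2 (a calcium release channel). They were chosen by name, with earlier results of these data known, and all 8 were found among the 29411 gene names of the array. Where a gene had several probes, the probe with the highest mean over the arrays was kept.

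The samples were brown adipose tissue of C57BL/6J mice, which entered the diet groups after weaning at 3 to 4 weeks of age. LFC mice received a low fat diet with 10% of calories from fat, and HFC mice a high fat diet with more sucrose and 60% of calories from fat. HF5, HF20 and HF75 mice received the HFC diet with 5, 20 or 75 µg of KAL-1, a formulation made from plants, so HFC is the control of the doses. LFC and HFC had 1 array each at 10 time points (Day 6, 10 and 14, then Week 0, 3, 6, 9, 12, 15 and 18), while each dose had 6 arrays, at Week 3 to Week 18. The labels speak of 5 animals taken per group at an interval, and how many of them stand behind an array is not given in the sources used here, so the time points served as the replicates.

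Brown fat burns fuel to make heat, mostly by proton leak through the uncoupling protein Ucp1. Cycles that spend ATP without net work are further known sources of heat in fat cells: creatine is phosphorylated and the phosphate is released again, or SERCA2 pumps calcium into the endoplasmic reticulum while ryanodine receptors let it out. The same proteins serve muscle, where Ckm and Ckmt2 are the cytosolic and mitochondrial creatine kinases of striated fibres, Atp2a2 is the pump of slow and cardiac fibres and Ryr2 the release channel of the heart. Each gene was set beside Acta1 (skeletal muscle actin) and Ckm.

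Levels are log2 signals minus the 75th percentile of the same array, so that a level of 0 equals that percentile. They are compared here between arrays for 1 gene and not between genes. The arrays differed in brightness. In 11 of them the 75th percentile was above 600 units and in the other 27 it lay between 35.1 and 430 units. The bright arrays were 4 of LFC, 2 of HFC, 4 of HF20 and 1 of HF75, and none of HF5. The level of 1 gene could differ with brightness. Atp2a2 had a mean of 1.29 on bright and -0.59 on dim arrays, and Ckb of 2.19 and 3.35. Levels of a bright and a dim array are therefore not directly comparable. Acta1 spanned levels from -2.94 to 6.40, and 5 arrays stood highest in the muscle score, the mean of Acta1 and Ckm after each was centred. These were HFC Day 10 (score 5.74), HF20 Week 15 (5.26), HF20 Week 3 (5.24), HF75 Week 12 (5.24) and LFC Week 12 (3.62). Of the 17 skeletal muscle markers all were well above background on some array, and their summed level relative to the 75th percentile ran from 3.23 in LFC Week 0 to 1890 in HF75 Week 12. By group the highest sum was 376 in LFC, 108 in HF5, 593 in HF20 and 1890 in HF75, and that of HFC lay between those of LFC and HF20. The HF75 array of Week 3 goes against the tissue label: Ucp1 stood at -3.07 there, against a median of 6.27 over all arrays, and 7 of the 10 brown fat markers, Cidea, Cox7a1 and Cox8b among them, had their lowest level there. Results that rest on that array are given with and without it. Of the neural markers Snap25 was well above background on 0 of 38 arrays and Th on 1.

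The probes matter for the creatine kinases because Ckb and Ckm are close relatives. The second probe of Ckb and the probe of Ckm lie over matching stretches of the 2 genes, and the capitals mark the 45 of 56 overlapping bases that are identical. Both are sequences deposited in the array files.
Ckb, second probe: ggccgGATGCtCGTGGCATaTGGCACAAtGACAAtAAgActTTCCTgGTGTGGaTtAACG
Ckm: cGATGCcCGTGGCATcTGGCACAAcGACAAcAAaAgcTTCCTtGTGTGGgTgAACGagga
Ckmt2: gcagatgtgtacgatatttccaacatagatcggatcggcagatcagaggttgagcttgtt
The kept Ckb probe and the Ckmt2 probe had no such match with Ckm. Among the probe pairs of creatine kinases and the other genes named here, the next best ungapped match held 26 identical bases of 57.

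Promoters are shown for Ckmt2, the gene that followed muscle genes below, for the muscle kinase Ckm and for Ckb, whose slope was near 0. RefSeq promoters (GRCm38.p6) were found for 6 of the 8 genes; Slc6a8 and Atp2a2 had no entry. The 250 bases before the start are printed for Ckmt2 and Ckm, with the letters CAGCTG in capitals, a form of the E-box that myogenic factors can bind, and for Ckb with TATAAA in capitals. Both strands were searched.
Ckmt2, chr13:91876886-91877135, minus strand: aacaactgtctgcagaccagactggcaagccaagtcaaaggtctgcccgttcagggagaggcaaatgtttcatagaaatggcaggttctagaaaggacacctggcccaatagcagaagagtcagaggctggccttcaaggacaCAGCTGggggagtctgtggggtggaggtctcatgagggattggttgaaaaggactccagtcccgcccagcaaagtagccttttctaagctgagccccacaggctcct
Ckm, chr7:19410844-19411093, plus strand: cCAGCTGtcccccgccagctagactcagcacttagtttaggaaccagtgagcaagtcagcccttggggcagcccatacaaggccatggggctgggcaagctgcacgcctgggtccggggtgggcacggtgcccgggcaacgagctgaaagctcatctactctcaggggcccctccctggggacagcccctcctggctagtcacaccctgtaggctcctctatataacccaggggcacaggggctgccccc
Ckb, chr12:111672339-111672588, minus strand: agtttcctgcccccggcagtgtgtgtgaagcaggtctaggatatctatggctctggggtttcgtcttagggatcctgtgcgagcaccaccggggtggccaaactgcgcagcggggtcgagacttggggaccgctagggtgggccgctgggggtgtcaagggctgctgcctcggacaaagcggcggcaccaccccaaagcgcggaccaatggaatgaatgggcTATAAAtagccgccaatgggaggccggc
CAGCTG had 1 match in each of the Ckmt2, Ckm and Acta1 windows and no match in those of Ckb, Ckmt1, Gatm, Gamt and Ryr2. Of all 32851 promoter windows (the 250 bases before the start), 13.0% held it. The wider form CANNTG includes CAGCTG. It had 4 matches in Ckmt2, 2 each in Acta1 and Ryr2 and 1 each in Ckm and Gatm, and 66.2% of all windows held it. The letters CCAAT and AGGTCA were searched as well. A bearing of any of these letters on the levels was not tested. TATAAA had a match in Ckb, Acta1 and 1 of the 2 Ckmt1 promoters, and 12.4% of all windows held it.

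Ckb, the cytosolic creatine kinase, was well above background on all 38 arrays. Its level had a lowest, median and highest value of 1.01, 2.84 and 3.79 in LFC and of 2.57, 3.14 and 3.93 in HFC. The corresponding values were 2.52, 3.72 and 4.59 in HF5, 1.57, 2.41 and 3.64 in HF20 and 2.62, 3.13 and 3.73 in HF75. All groups overlapped, and the 7 lowest levels were those of bright arrays of LFC and HF20. By brightness the mean was 2.19 ± 0.73 (SD, n = 11) on bright and 3.35 ± 0.51 (SD, n = 27) on dim arrays. The second probe had the same order, 0.23 ± 0.87 on bright and 0.79 ± 0.64 on dim arrays.

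Ckmt1, the ubiquitous mitochondrial creatine kinase, was well above background on only 13 of 38 arrays, 5 of LFC, 4 of HFC, 3 of HF20, 1 of HF75 and 0 of HF5. In LFC it ran from -7.04 over a median of -5.31 to -4.11, and in HFC from -7.49 over -5.10 to -1.05. The highest level by far was that of HFC Week 12 (-1.05), followed by HF5 Week 18 (-2.44), where the probe was not well above background.

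Ckmt2, the sarcomeric mitochondrial creatine kinase, had the widest range of the 8, from -8.63 to 4.19, and was well above background on 26 arrays. In LFC its lowest, median and highest levels were -8.63, -2.01 and 2.57, and in HFC -8.22, -2.57 and 3.78. In HF5 they were -4.14, -1.86 and -0.20, in HF20 -8.57, -0.97 and 4.19, and in HF75 -8.31, -3.59 and 2.89. The 5 arrays with the highest muscle score held the 5 highest Ckmt2 levels, 2.57 to 4.19, and none of the other 33 exceeded 0.43. At the low end 5 bright arrays lay between -8.63 and -8.22, where the probe was not well above background. Readings near background differed between arrays: on dim HF20 Week 18 Ckmt1, Ckmt2 and Ryr2 all stood at -5.33. The width of the Ckmt2 range depends in part on this.

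**Figure D1:**
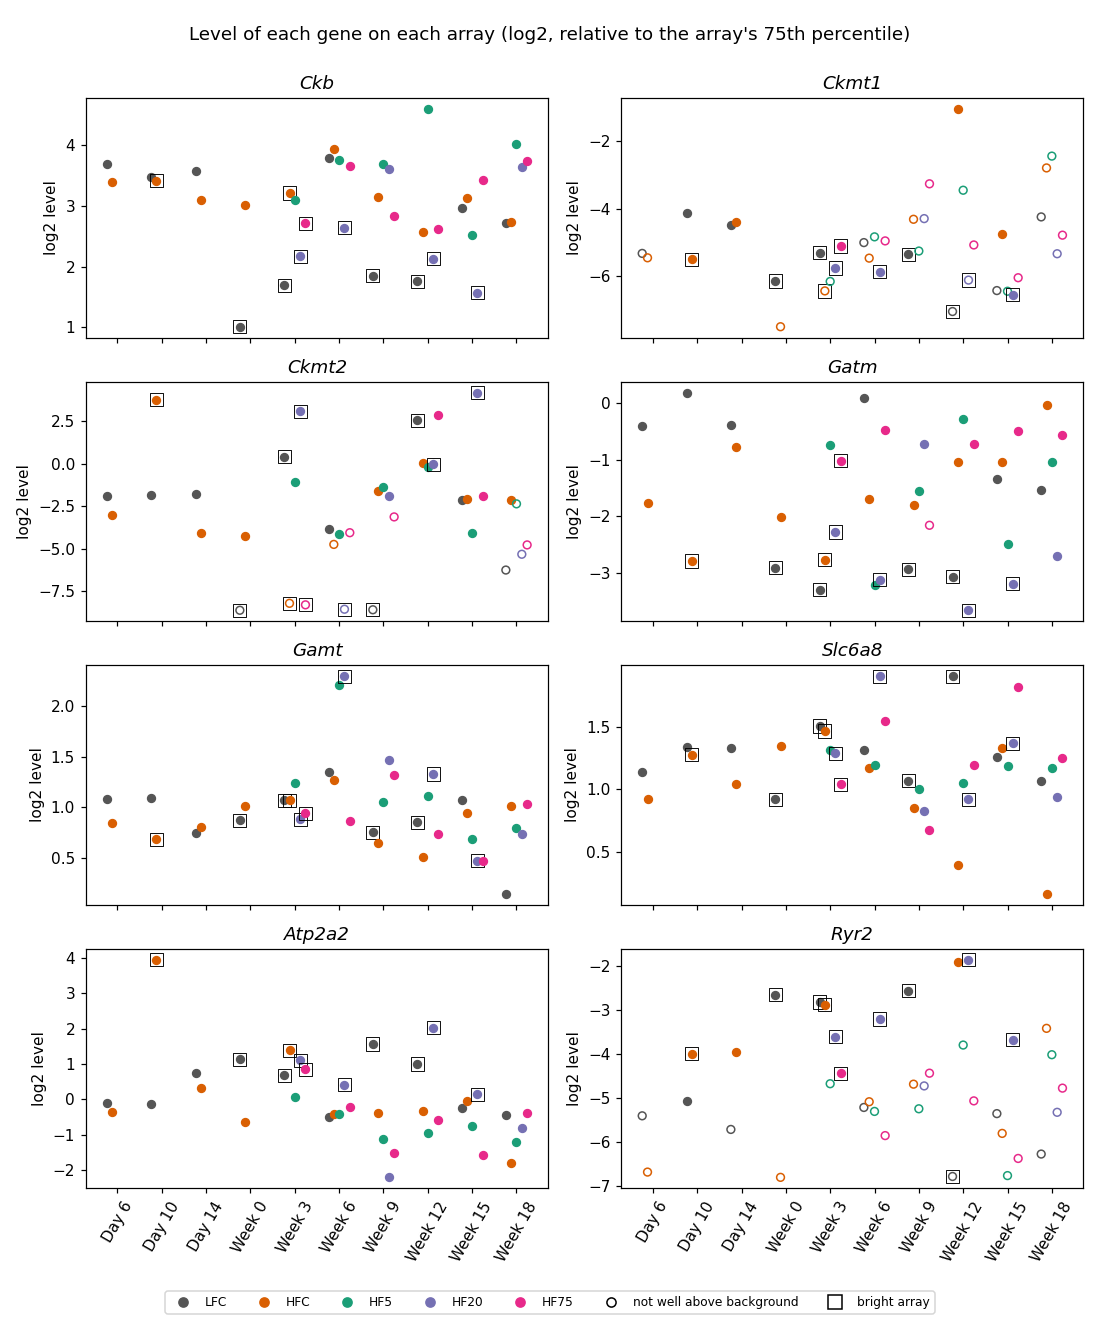
Level of each gene (log2 relative to the array's 75th percentile, y axis) at each time point (x axis), with 1 point per array coloured by group, open where the probe was not well above background and boxed where the array was bright. Ckmt2 spreads from -8.63 to 4.19, while Slc6a8 stays between 0.16 and 1.91.

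Of the synthesis enzymes, Gatm (which makes guanidinoacetate) was well above background on 37 arrays, with a lowest, median and highest level of -3.30, -1.45 and 0.18 in LFC and of -2.79, -1.73 and -0.04 in HFC. In HF5 these were -3.22, -1.30 and -0.29, in HF20 -3.66, -2.92 and -0.73, and in HF75 -2.16, -0.65 and -0.47. Groups overlapped, and bright arrays were lower, at -2.82 ± 0.69 (SD, n = 11) against -1.14 ± 0.88 (SD, n = 27). Gamt, which methylates guanidinoacetate to creatine, varied far less. Its level ran from 0.14 to 1.35 in LFC and from 0.51 to 1.27 in HFC, and reached 2.21 in HF5 and 2.30 in HF20, both at Week 6. Slc6a8 was the steadiest of the 8, with a range of 1.75 and a mean of 1.17 ± 0.35 (SD, n = 38). It stood between 0.92 and 1.91 in LFC, between 0.16 and 1.47 in HFC, and had a range of only 0.32 in HF5. For Gamt and Slc6a8 the means of bright and dim arrays were 1.02 and 0.97, and 1.34 and 1.11, each pair closer than 1 SD.

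Atp2a2 was well above background on all 38 arrays by its kept probe. The lowest, median and highest levels were -0.49, 0.28 and 1.56 in LFC, -1.80, -0.34 and 3.94 in HFC and -1.19, -0.86 and 0.06 in HF5. In HF20 they were -2.20, 0.28 and 2.02, and in HF75 -1.56, -0.47 and 0.85. HFC Day 10, an array with 1079 spots flagged as outliers against at most 73 on any other, stood apart. The next highest array of the 38 was at 2.02. A second Atp2a2 probe, shown because it repeats this and has the trend described below, was also highest in HFC Day 10 (0.18, next -1.13), and on a further probe that array ranked 3 of 38.
Atp2a2, second probe: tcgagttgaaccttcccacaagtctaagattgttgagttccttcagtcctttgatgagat
All of these probes gave higher levels on bright arrays; for the kept probe the mean was 1.29 ± 1.02 (SD, n = 11) against -0.59 ± 0.65 (SD, n = 27). Ryr2 was well above background on 13 of 38 arrays by its kept probe, 10 of them bright, and on 0 arrays by its other probe. Its kept probe ran from -6.81 to -1.86, and it was well above background on 4 arrays each of LFC, HFC and HF20, on 1 of HF75 and on 0 of HF5.

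One of the 8 genes followed the muscle genes. In a limma fit over 38 arrays with group and time point as factors, Ckmt2 rose by 1.22 ± 0.09 (SE) for each unit of the muscle score (adjusted p = 3.92e-10). Of the 21854 genes tested in that fit, 0.65% passed the adjusted threshold of 0.05, and 3.13% had an unadjusted p under it; of the 8 genes, Ckmt2 alone met either. The slopes of the other 7 lay between -0.12 and 0.01, each with an adjusted p of 1. Without the 5 arrays of highest score the slope of Ckmt2 was 1.46 ± 0.14 (SE, adjusted p = 1.81e-06), and on the 27 dim arrays alone it was 0.95 ± 0.19 (SE, adjusted p = 0.0473). With brightness class as a term it was 1.21 ± 0.08 (SE). In brown fat taken by dissection, fewer muscle fibres and less RNA per fibre cannot be told apart.

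**Figure D2:**
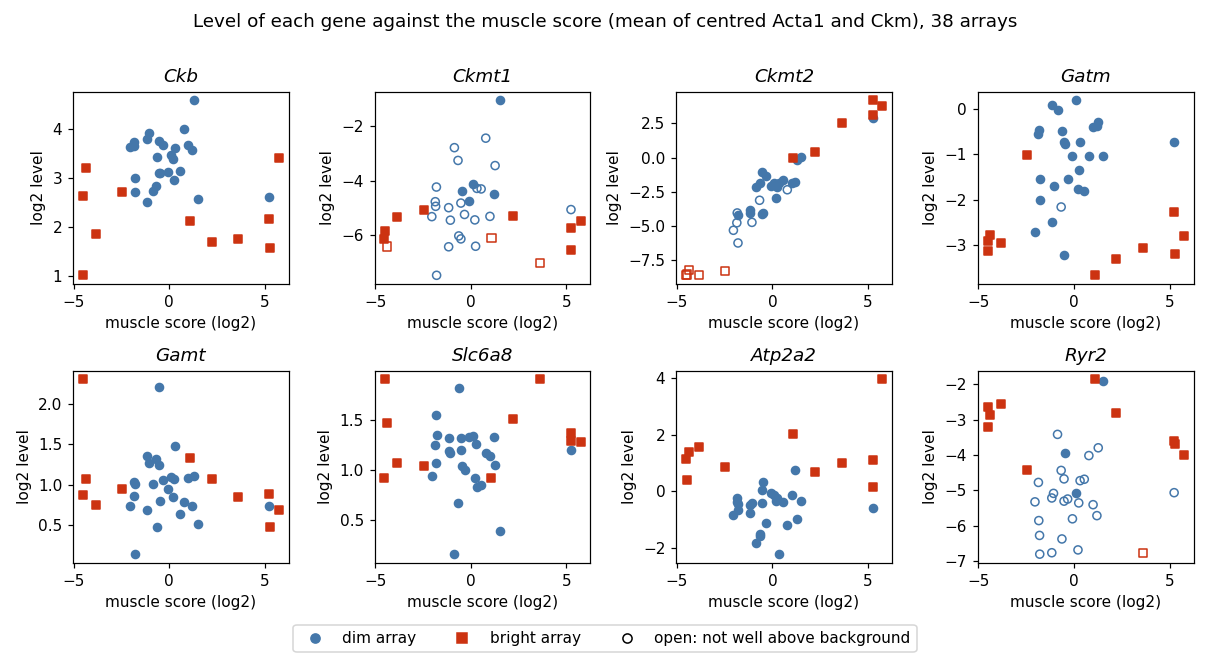
Level of each gene (log2, y axis) against the muscle score (log2, x axis) on 38 arrays, with dim arrays as circles, bright arrays as squares and open symbols where the probe was not well above background. Ckmt2 rises along the score with a fitted slope of 1.22, and the slopes of the other genes lie between -0.12 and 0.01.

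For Atp2a2 and Ryr2, which muscle also uses, the slope did not pass the test. The slope of Atp2a2 was -0.02 ± 0.09 (SE), and -0.29 ± 0.10 (SE) without the 5 arrays of highest score (adjusted p = 0.274). Its level was 3.94 in HFC Day 10 but 0.14 in HF20 Week 15 and -0.57 in HF75 Week 12, arrays with scores close to that of HFC Day 10. The 11 slow and cardiac muscle markers summed to 128 in HFC Day 10, to 139 in HF20 Week 15 and to 46.8 in HF75 Week 12, and their part in the Atp2a2 levels was not tested. On the 5 arrays of highest score Ckb was at 2.31 ± 0.74 (SD, n = 5), below the 3.12 ± 0.74 (SD, n = 33) of the others, and 4 of those 5 arrays were bright. The second Ckb probe, which shares most bases with that of Ckm, had a slope of -0.04 ± 0.05 (SE), beside -0.02 ± 0.06 (SE) for the kept one.

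The first comparison asked whether the high fat diet changed these genes. Over the 10 time points 0 of the 8 passed the adjusted threshold in limma, 0 had an unadjusted p under 0.05, and over all 21856 genes tested the percentages were 0% and 6.98%. Ckb had the smallest p. It was higher in HFC at 7 of 10 time points, by 0.51 ± 0.27 (SE, adjusted p = 0.644), with a lowest single difference of -0.48 at Day 14 and the highest at Week 0. Of the 4 differences above 0.5, all came where LFC was bright, and at Week 3 (1.52) HFC was bright too. Over the 6 pairs whose arrays were alike in brightness, Week 3 among them, the mean difference was 0.18 ± 0.71 (SD, n = 6). On dim arrays alone the fitted difference was -0.09 ± 0.19 (SE). The second Ckb probe differed by 0.46 ± 0.27 (SE, adjusted p = 0.648) over the 10 time points. Ckmt2 differed by 0.57 ± 1.32 (SE), with single differences from -8.65 at Week 3 to 6.98 at Week 9, the time points at which the muscle score differed by -6.59 and 4.37. At both, the lower Ckmt2 signal was not well above background. With the muscle score in the fit the Ckmt2 difference was 0.27 ± 0.39 (SE, adjusted p = 0.803). For Gatm (-0.01 ± 0.46, SE), Gamt (-0.02 ± 0.17), Slc6a8 (-0.29 ± 0.20), Atp2a2 (-0.20 ± 0.50), Ryr2 (0.26 ± 0.72) and Ckmt1 (0.58 ± 0.63) the adjusted p lay between 0.65 and 0.994. Atp2a2 was 4.07 higher in HFC at Day 10, while its other 9 differences lay between -1.94 and 0.71.

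From Week 3 to Week 18 the same contrast was read from the fit of all 5 groups. Again 0 of 8 genes passed the adjusted threshold, as 0.00915% of all genes did, and 2 of 8 had an unadjusted p under 0.05, beside 14.4% of all genes. These were Ckmt1, at 1.43 ± 0.63 (SE, p = 0.0342, adjusted p = 0.337), and Slc6a8, at -0.46 ± 0.22 (SE, p = 0.0496, adjusted p = 0.346). Ckmt1 was well above background on 2 of the 6 arrays in either group, so most of its differences compare signals near background. At Week 12, where HFC had its highest level (-1.05), the Ckmt1 difference was 5.99 and the LFC probe was not well above background. That HFC array had 78.8% of its spots well above background, the highest share of the 38, at a 75th percentile of 119.7. With 1 week left out at a time, the Ckmt1 difference lay between 0.51 and 1.94. Slc6a8 was lower in HFC at 5 of 6 weeks, by 1.52 at Week 12 and 0.90 at Week 18 and by at most 0.22 at the others. Ckb was higher in HFC at 6 of 6 weeks, by 0.66 ± 0.37 (SE, adjusted p = 0.382), and 3 of the 6 LFC arrays were bright against 1 of HFC. With brightness class in the fit these differences were 1.13 ± 0.65 for Ckmt1, -0.36 ± 0.22 for Slc6a8 and 0.34 ± 0.34 for Ckb (SE).

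**Figure D3:**
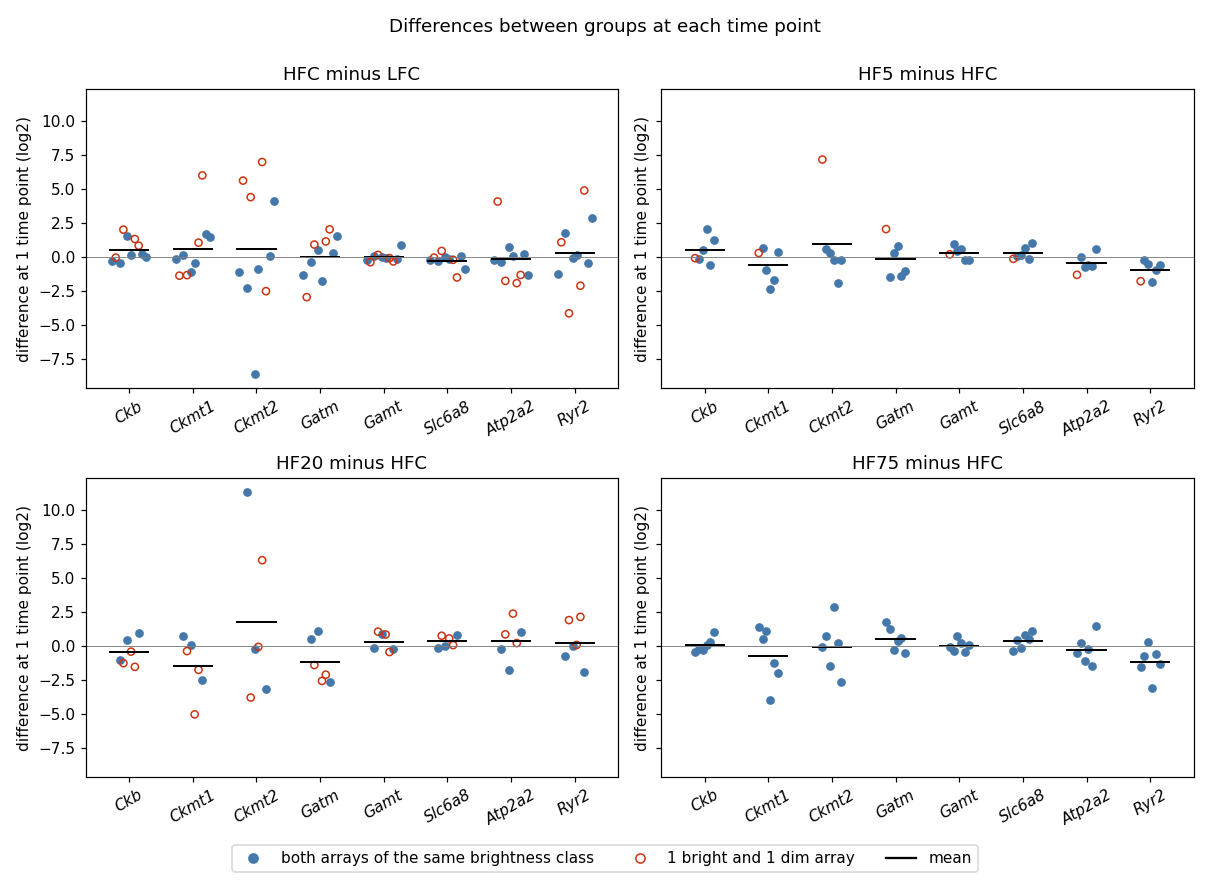
Difference between 2 groups at 1 time point (log2, y axis) for each gene, with filled points where both arrays were of one brightness class, open points where 1 was bright and 1 dim, and a bar at the mean. For Ckmt2 the points reach from -8.65 to 11.32, with the lower signal of both extremes not well above background, and for Gamt they stay between -0.47 and 1.03.

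The dose comparisons used HFC as control, so they share its arrays. With HF5 against HFC, 0 of 8 genes passed the adjusted threshold and 0 had an unadjusted p under 0.05, beside 0% and 5.46% of all genes. Ryr2 and Ckmt1 were well above background on 0 of the 6 HF5 arrays and on 2 of the 6 HFC arrays, so no difference is given for them. With HF75 against HFC, the numbers were 0 and 0 of 8 genes, beside 0% and 9.15% of all genes. Gatm differed by 0.50 ± 0.61 (SE) and Slc6a8 by 0.36 ± 0.22 (SE, adjusted p = 0.59). Ryr2 and Ckmt1 were well above background on 1 of the 6 HF75 arrays each, so their differences rest on signals near background. Without the HF75 array of Week 3 again 0 of the 8 passed, and the differences were 0.45 for both Gatm and Slc6a8, while that of Ckmt2 went from -0.09 ± 1.74 to 1.13 ± 1.72 (SE).

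With HF20 against HFC, 0 of 8 genes passed and 1 had an unadjusted p under 0.05, beside 0% and 33.2% of all genes. That gene was Ckmt1, at -1.51 ± 0.63 (SE, p = 0.0254, adjusted p = 0.124). Its probe was well above background on 3 of the 6 HF20 and 2 of the 6 HFC arrays, so the difference rests largely on signals near background. At Week 12 it was -5.06, against the HFC array that also gave the widest diet difference. With 1 week left out at a time, it lay between -1.95 and -0.80. Gatm was lower at 4 of 6 weeks, by 1.21 ± 0.61 (SE, adjusted p = 0.163). In 3 of those 4 weeks HF20 was bright and HFC dim, and with brightness class in the fit the difference was -0.25 ± 0.56 (SE). Ckmt2 was 1.70 ± 1.74 (SE) higher in HF20, with 11.32 at Week 3, a week with muscle scores of 5.24 in HF20 and -4.37 in HFC, where the HFC signal was not well above background. With the muscle score in the fit that value was -0.32 ± 0.66 (SE). For Ckb (-0.49 ± 0.37, SE), Gamt (0.29 ± 0.24), Slc6a8 (0.31 ± 0.22), Atp2a2 (0.38 ± 0.48) and Ryr2 (0.23 ± 0.67) the adjusted p lay between 0.302 and 0.816. The median over all genes was -0.20 here, and 0.04 after quantile normalization, where Ckmt1 differed by -0.98 and Gatm by -0.82.

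**Figure D4:**
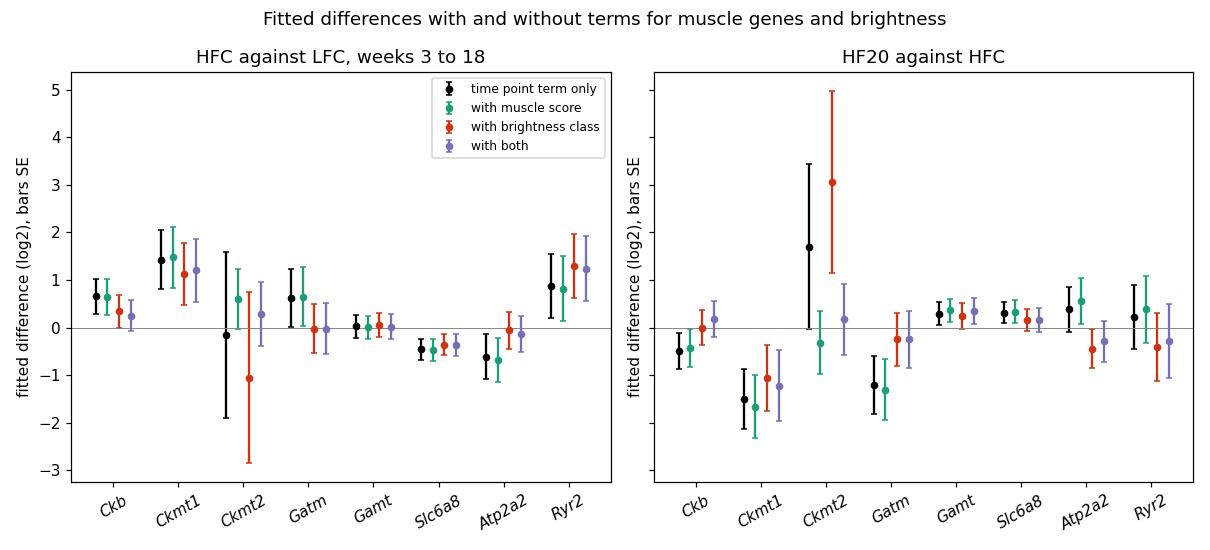
Fitted differences (log2, bars SE) of the 8 genes for HFC minus LFC at Week 3 to Week 18 and for HF20 minus HFC, in fits with the time point term only, with the muscle score, with brightness class and with both. The SE of Ckmt2 in HF20 shrinks from 1.74 to 0.66 with the muscle score, and Gatm in HF20 moves from -1.21 to -0.25 with brightness class.

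Whether the 3 doses differed among themselves was tested with a moderated F test. For 0 of 8 genes it passed after adjustment, beside 13.4% of all genes, and for 2 of 8 the unadjusted p was under 0.05, beside 37.3% of all genes. Both shares among the 8 lie below the background. Without the HF75 array of Week 3, 0 of all genes passed this test. An unadjusted p under 0.05 was then found for 7555 genes, beside 8163 with that array. The count of genes passing was also 0 with brightness class as a term and on dim arrays alone. Gatm had p = 0.0327 (adjusted p = 0.104). Its mean was -1.56 ± 1.11 in HF5, -2.62 ± 1.03 in HF20 and -0.90 ± 0.65 in HF75 (SD, n = 6). It passed with slide as a random block (adjusted p = 0.0426), where 6455 of all 21856 genes passed. It also passed without Week 9 (adjusted p = 0.0331), where the share of all genes was not counted. Its adjusted p was, however, 0.604 with brightness class in the fit and 0.153 without the HF75 array of Week 3. Ckb had p = 0.0461 (adjusted p = 0.128). Its means were 3.61 ± 0.72, 2.63 ± 0.84 and 3.16 ± 0.50 (SD, n = 6) in the same order. HF20 held 4 bright arrays of 6, HF75 1 and HF5 0.

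Along the time course 0 of 8 genes had a trend in LFC and HFC together, adjusted or not, while 1.63% and 21.3% of all genes did. The steepest kept probe was that of Atp2a2, at -0.068 ± 0.037 (SE) per week (adjusted p = 0.298), and of Ckmt1, at 0.068 ± 0.045 (SE) per week. When every probe was tested, the second Atp2a2 probe printed above fell by 0.10 ± 0.02 (SE) per week (adjusted p = 0.0441), a probe named after its value was seen and well above background on 28 of 38 arrays. Each of the 12 scan days held arrays of 1 time point, so days on the diet, age and scan day cannot be told apart.

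A change of the diet difference with time passed for 0 of 8 genes and for 0% of all genes. At an unadjusted p under 0.05 there were 2 of 8, beside 15.3% of all genes. Ckmt1, well above background on 5 LFC and 4 HFC arrays, had a product of 0.206 ± 0.075 (SE) per week (p = 0.0199, adjusted p = 0.219) and Gatm one of 0.137 ± 0.059 (SE) per week (p = 0.0405, adjusted p = 0.299). For Gatm the HFC minus LFC difference was -1.36 at Day 6, -2.97 at Day 10 and -0.39 at Day 14, and 0.30 at Week 15 and 1.51 at Week 18. It was below 0 at 4 of 10 time points, Week 6 among them with -1.78. On dim arrays alone the product was 0.119 ± 0.045 (SE) for Gatm (adjusted p = 0.275) and 0.095 ± 0.032 (SE) for Ckmt1 (adjusted p = 0.23). The sign was the same in all 12 alternatives for Ckmt1 and all 13 for Gatm, and normexp background correction gave 0.034 and 0.060. Gamt, Slc6a8, Atp2a2 and Ryr2 also kept their sign in every alternative. The alternatives reuse the same arrays, so a kept sign is no independent support.

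Other genes of these pathways were read from lists. Of the 8 other creatine and phosphagen genes (Ckm, Alpl, Ahcy, Mat2a, Arg2 and Oat among them), 0 passed in HFC against LFC, in any dose against HFC, in the trend or in the product. Among the doses 2 of 8 passed, beside 13.4% of all genes, and without the HF75 array of Week 3 0 passed. One was Alpl, an alkaline phosphatase listed on the array as Akp2 (adjusted p = 0.0375). Arg2, the mitochondrial arginase, had the widest diet difference of the list, at 2.14 ± 0.78 (SE, p = 0.0182, adjusted p = 0.644), and was well above background on 12 arrays. The list had a median HFC minus LFC difference of 0.02, beside 0.06 over all genes.

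Of the 25 other calcium cycling genes, 0 passed in HFC against LFC or in any dose against HFC. Itpr1, an inositol trisphosphate receptor that releases calcium from the endoplasmic reticulum, had the smallest p of the list in the diet contrast, at -0.74 ± 0.25 (SE, p = 0.0145, adjusted p = 0.644). Pln, the phospholamban that holds back SERCA2, was lower in HF20 by 2.19 ± 0.56 (SE, p = 0.000705, adjusted p = 0.118), with 23 of 38 arrays well above background. In the trend over days 1 of 25 passed, beside 1.63% of all genes. It was Calu, a calcium binding protein of the secretory pathway, which fell by 0.072 ± 0.017 (SE) per week (adjusted p = 0.0429). Days on the diet, age and scan day cannot be told apart for it either, and with scan day as a random block 2 of all genes passed the trend. Among the doses 2 of 25 passed, beside 13.4% of all genes, and without the HF75 array of Week 3 0 passed. One was Itpr3, another inositol trisphosphate receptor (adjusted p = 0.0342). The list's median difference was -0.03 in the diet contrast, beside 0.06 over all genes.

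The muscle score parted this list too. Of the 25 genes 5 rose with it and 0 fell, beside 0.65% of all genes called in either direction. They were Hrc, which binds calcium in the sarcoplasmic reticulum (0.64 ± 0.06 per unit, SE, adjusted p = 3.95e-08), Casq1, the calsequestrin of fast fibres (0.77 ± 0.08, adjusted p = 1.9e-07), Ryr1, the release channel of skeletal muscle (0.74 ± 0.10, adjusted p = 3.39e-05), Atp2a1, the pump of fast fibres (0.44 ± 0.06, adjusted p = 7.22e-05), and Sln, the sarcolipin that regulates the pump (0.72 ± 0.12, adjusted p = 0.000396). Of these, Atp2a1, Ryr1 and Casq1 are also on the list of skeletal muscle markers. Of the 7 other creatine genes tested 0 rose with the score. Among the 15 skeletal muscle markers tested besides Acta1 and Ckm, 15 rose, with a median slope of 0.91.

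The genes with the most similar pattern are given as a description with no test, over arrays that differ in depth of signal and muscle content. By likeness of pattern, taken as Pearson's r over 38 arrays after the mean of each brightness class was subtracted and given as a description, the genes nearest to Ckmt2 were Apobec2 (r = 0.978), Tnnt3 (0.978) and Tnni2 (0.970), the last 2 being fast troponins on the marker list. Nearest to Ckb was Gm6949 (0.942), which RefSeq lists as a pseudogene and the array describes as similar to the Ckb protein, followed by LOC675028 (0.766), described there as similar to creatine kinase. Whether hybridization can tell Ckb from such near copies was not tested, because only probes were aligned and not transcripts. The kept Ckb probe had 18 identical bases of 50 with the Gm6949 probe and 21 of 58 with that of LOC675028. Gatm was nearest to Plekha4 (0.872), Gpm6b (0.860) and Bcas1 (0.851), and Ckmt1 to Dscaml1 (0.830). For Gamt, Slc6a8, Atp2a2 and Ryr2 the nearest genes were Bat3 (0.736), Nup133 (0.801), Ocrl (0.684) and Lrsam1 (0.654).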

How the data were processed

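Brown adipose RNA of 38 samples was labelled with Cy3 and hybridized to 1-colour Agilent arrays, and the authors deposited scanner tables whose processed signal is an intensity corrected for background within the array. File headers name Agilent Feature Extraction 10.5.1.1 and the submitters' processing notes version 9.1. A deposited table of log2 values relative to LFC of the same time point was used only as an alternative. Groups came from the labels. The series text names 3 biological replicates, but the labels give 1 array per group and time point.

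Of 43803 spots per array, those flagged as outliers were left out and spots of a probe averaged, giving 40628 probes. The log2 intensity minus the array's 75th percentile was tested with limma 3.58.1 (R 4.3.3) and Benjamini-Hochberg adjustment over the 21856 genes well above background on at least 6 arrays. The steps were tested on simulated data. Time point was a block, as the labels give each group 1 array per time point (those of Week 6 and of Week 9 were scanned on 2 days). Deviations of HFC and LFC at one time point correlated with r from -0.26 to 0.67 (median 0.40). Ckm was flagged in HFC Week 0, so the muscle score rests on Acta1 there. The highest correlation between 2 arrays was 0.9825.

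The members and lists were chosen with earlier results of these data known. Named were the 8 genes in every comparison, list genes past the threshold or with the 3 smallest p, and the 3 most alike genes among those well above background on at least 30 arrays. Alternatives were quantile normalization, normexp (offset 50), other filters and floors, every probe, brightness class, slide (32) and scan day (12) as blocks, the muscle score, no time point term, the methods' t-test and each time point left out. Chosen after seeing the data were fits without the 5 arrays richest in muscle genes, without the HF75 array of Week 3, on dim arrays (other than for the muscle slope) and with both terms. Some list genes are not reported here. The number of arrays limits the precision, and p-values measure the spread between time points.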

Additional observations from a re-analysis of the deposited data

Results flagged for a closer look

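In 3 of 40 sets of arrays, 1 array lay far from the rest of its group for 1 of the 8 genes, where chance gives about 1 in 20. Gatm in HF75 was at -2.16 at Week 9, against -1.02 for the next lowest, and it was not well above background there. Gamt in LFC was at 0.14 at Week 18, against 0.74 for the next lowest array. Gamt in HF5 was at 2.21 at Week 6, against 1.24 for the next highest, and HF20 stood at 2.30 in the same week.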

How the results depend on the processing

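In the 5 group comparisons, the trend and the product, 0 of the 8 genes passed under the alternatives run, apart from the exceptions below, and in the muscle slope Ckmt2 passed wherever it was tested. With every probe tested, a second Atp2a2 probe passed the trend (adjusted p = 0.0441), though the kept one did not. Among the doses the count was 1 with slide as a random block (Gatm, adjusted p = 0.0426) and between 0 and 1 when each time point was left out (1 without Week 9, Gatm, 0.90, adjusted p = 0.0331). For Gatm the difference of HF75 from HF5 was then 0.70 with slide as a block. With only genes well above background on every array the muscle slope count was 0, since 4 of the 8 were tested and Ckmt2 was not among them. Without the replicate block, that is with no time point term, the pairing was ignored and 0 of the 8 passed in each group comparison, while the muscle slope of Ckmt2 was 1.26 ± 0.06 (SE). The numbers of genes called overall moved more. Among the doses 2924 genes passed, but 0 without the HF75 array of Week 3, without the 5 arrays richest in muscle genes, with brightness class as a term, on dim arrays, by normexp or with no filter. The count was 695 with the muscle score, 1231 with no time point term and 6455 with slide as a block, and along time 356 passed, but 1734 with brightness class and 2 with scan day as a block. The product had 0 calls and 669 with brightness class. Normalization shifted the median of all genes, in HF20 from -0.20 to 0.04 by quantile normalization and -0.40 by normexp, and in HFC against LFC from 0.06 to -0.07 and 0.15. By the methods' t-test 0 of all genes passed after adjustment (905 at an unadjusted p under 0.05). Ckmt1 and Ryr2 lay near background on 25 arrays each, which limits what their levels show.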
